A study of Mus musculus with 8 samples.

Results

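Dense clusters of distal accessible regions were collected from the consensus set of an ATAC-seq experiment on mouse medullary thymic epithelial cells (mTECs). An autosomal region counted as distal when its centre was more than 2000 bases from any annotated transcription start. Neighbouring distal regions were chained when the gap between them was at most 12.5 kb, and chains of 8 or more regions were kept. This left 1090 regions in 110 chains, out of 36964 autosomal distal regions and 57124 regions in all. The chained regions were 2.95% of the distal regions (95% Wilson interval 2.78 to 3.13) and 1.91% of all regions. The interval treats regions as independent, which they are not, since a chain enters as a whole. The rule used positions only, so the closeness of the regions is the choice itself and not a result.

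ATAC-seq uses the Tn5 transposase to cut open chromatin and insert sequencing adapters. The labels give 8 samples of genomic DNA from sorted thymic mTECs in 4 groups, Tspan8neg MHCIIlow, Tspan8pos MHCIIlow, Tspan8neg MHCIIhigh and Tspan8pos MHCIIhigh, with 2 biological replicates in each. Every group is labelled wild type (wt), and the study's methods give BL6N6 mice of 4 to 6 weeks of age. No treatment is listed. Tspan8 is a surface tetraspanin and MHCII is the class of molecule that presents antigen to CD4 T cells, and both were used only to sort the cells. The regions were merged over the samples, so what follows describes where regions lie and says nothing about which group opened them. No read count per sample was used, and no comparison between the groups was made.

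The thymic medulla is where developing T cells meet self-antigens, and mTECs display tissue-restricted genes through Aire and other regulators. Receptors of the tumour necrosis factor family drive mTEC maturation through NF-kB, whose subunit precursor p105 is made by Nfkb1 and whose inhibitor is made by Nfkbia. Groups of closely spaced enhancers are a known feature of genes that define a cell type or respond strongly to signals. Accessibility alone does not show that a region is an enhancer.

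Regions at the starts of marker genes were counted beside the label of the cells. A region lay within 1000 bases of a start of all 12 thymic epithelial markers, among them Foxn1, Trp63, Krt5, Krt14, Epcam, Aire and Fezf2. The same held for 2 of 9 T lineage markers (Tcf7 and Bcl11b), 1 of 5 markers of other leukocytes (Cd79a) and 3 of 7 fibroblast and endothelial markers (Pdgfra, Col1a2 and Kdr). Cd3e, Cd4, Ptprc, Col1a1 and Pecam1 had none. The share of all genes with a region this near a start was not counted, so these counts have no background beside them. The part that other cells had in the chained regions was not tested.

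The widest region of each chain next to a gene of the lists described below is shown here, with that of the chain with most regions, so that the kind of sequence in the chains can be seen. Each is the plus strand of GRCm38.p6 (mm10), read from RefSeq, 5′ to 3′, as the central 300 bases or the whole region where it is shorter. The whole piece shown was searched, so a match can lie outside the central 200 bases used for the motif shares given later. Capitals mark 1 match per sequence, a TEAD match in the Nfkbia chain, an AP-1 match in the Nfkb1 chain, an NF-kB match in the Insm1 chain and a KLF match in the Cdh3 chain. The sequences of the H2-Aa and Sfi1 chains held none of the 10 motifs in the piece shown and have no capitals.
Nfkbia chain, chr12:55464485-55464784: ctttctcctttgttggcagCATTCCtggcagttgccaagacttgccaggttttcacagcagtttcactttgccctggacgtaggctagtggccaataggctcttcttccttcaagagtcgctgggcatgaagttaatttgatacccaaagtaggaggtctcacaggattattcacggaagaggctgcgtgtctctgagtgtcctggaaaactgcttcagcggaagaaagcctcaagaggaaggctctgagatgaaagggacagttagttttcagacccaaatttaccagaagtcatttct
Nfkb1 chain, chr3:135556178-135556477: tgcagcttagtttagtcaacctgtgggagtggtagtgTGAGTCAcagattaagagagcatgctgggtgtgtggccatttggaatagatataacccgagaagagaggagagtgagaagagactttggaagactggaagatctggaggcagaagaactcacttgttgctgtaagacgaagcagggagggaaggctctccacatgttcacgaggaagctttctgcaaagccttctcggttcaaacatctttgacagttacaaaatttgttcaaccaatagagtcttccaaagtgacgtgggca
Insm1 chain, chr2:146272484-146272783: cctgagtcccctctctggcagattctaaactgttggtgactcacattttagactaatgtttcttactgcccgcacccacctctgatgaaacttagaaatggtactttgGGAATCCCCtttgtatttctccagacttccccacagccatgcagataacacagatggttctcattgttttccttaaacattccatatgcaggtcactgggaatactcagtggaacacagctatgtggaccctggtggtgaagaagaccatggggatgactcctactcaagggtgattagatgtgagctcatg
Cdh3 chain, chr8:106520501-106520782: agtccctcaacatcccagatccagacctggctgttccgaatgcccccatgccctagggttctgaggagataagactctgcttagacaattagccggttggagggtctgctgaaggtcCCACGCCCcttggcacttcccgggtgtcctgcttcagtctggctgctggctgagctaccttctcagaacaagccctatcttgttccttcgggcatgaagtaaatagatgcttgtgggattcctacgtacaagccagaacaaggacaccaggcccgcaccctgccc
H2-Aa chain, chr17:34296032-34296331: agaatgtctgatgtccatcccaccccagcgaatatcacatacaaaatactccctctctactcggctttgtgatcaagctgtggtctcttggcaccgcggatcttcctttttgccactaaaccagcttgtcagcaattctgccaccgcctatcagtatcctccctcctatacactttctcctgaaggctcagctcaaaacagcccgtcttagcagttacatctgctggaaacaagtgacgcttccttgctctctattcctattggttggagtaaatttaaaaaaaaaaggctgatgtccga
Sfi1 chain, chr11:3184748-3185047: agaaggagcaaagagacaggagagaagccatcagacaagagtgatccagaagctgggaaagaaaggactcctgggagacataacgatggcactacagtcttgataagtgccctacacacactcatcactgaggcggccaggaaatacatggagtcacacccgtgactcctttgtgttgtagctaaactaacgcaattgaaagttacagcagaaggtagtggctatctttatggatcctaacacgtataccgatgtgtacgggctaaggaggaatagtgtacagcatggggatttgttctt

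These pieces are largely single-copy sequence. In all 6 whole regions at least 95.2% of the 31-base words occurred once in the assembled chromosomes, and the share was 100% in the regions of the Nfkb1, Insm1, Cdh3 and H2-Aa chains. Their GC contents were 50.8% for Nfkbia, 47.4% for Nfkb1, 45.6% for Insm1, 56% for Cdh3, 47.6% for H2-Aa and 47.3% for Sfi1. The piece shown for the Nfkb1 chain also holds a KLF match, that for the Cdh3 chain an ETS match, and that for the Insm1 chain AP-1, ETS and TEAD matches. The matches marked for Nfkbia and Nfkb1 lie outside the central 200 bases.

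Most distal regions stood in short runs. The gap rule gave 15902 single regions, 4574 runs of 2 and 1657 runs of 3, falling to 91 runs of 7, which lie just outside the threshold. Just inside it were 43 chains of 8 and 25 of 9 regions. There were 42 chains of 10 or more regions, and the 3 longest held 17, 20 and 38. Because the median chain held 9 regions, most chains stood close to the threshold.

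**Figure D1:**
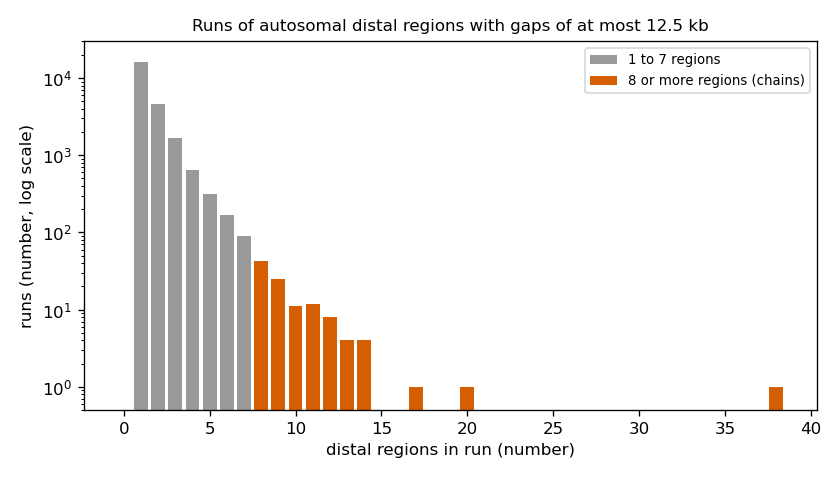
Number of runs (vertical axis, log scale) by the number of distal regions in the run (horizontal axis), with runs of 1 to 7 regions in grey and chains of 8 or more in orange. Run numbers fall from 15902 single regions to 91 runs of 7 and 43 chains of 8, and 1 chain of 38 regions stands far to the right.

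The chains spanned 19881 to 92526 bases, with a median of 41786, and their spans summed to 4.87 Mb. Only 272 kb of this lay in chained regions, and the 48 regions near starts inside 30 of the chains were not counted. The chained regions covered 2.32% to 26.7% of a chain's span, with a median of 5.14%, so even the dense clusters are mostly sequence outside them. The median gap inside chains was 4217 bases (quartiles 1504 and 7124, n = 980), against 21901 bases between all neighbouring distal regions. In runs of 2 to 7 regions, which met the same gap rule, the median gap was 4758 bases.

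Chains were found on every autosome. Chromosome 1 had 11 chains, chromosome 3 had 10 and chromosome 2 had 9. The chained share of distal regions ran from 1.23% on chromosome 13 to 4.92% on chromosome 16. On chromosome 16 the 73 chained regions lay in 8 chains, and on chromosome 13 the 23 chained regions lay in 2.

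Most chains stood alone, and 8 of the 110 lay within 200000 bases of another chain, as 4 pairs. One pair flanks the start of Bach1, a transcriptional repressor that senses heme. Here 14 intergenic regions at chr16:87597674-87671037 ended 27908 bases before the nearest Bach1 start, and 9 regions at chr16:87713086-87755132, 3 of them in introns, followed 42049 bases further on. A second pair was separated by 57558 bases and has the Nfkbia chain on one side and a chain inside 1110008L16Rik on the other. The third pair, 90296 bases apart at chr8:126684016-126736092 and chr8:126826388-126868073, held 11 and 10 regions and overlapped no protein-coding gene. The fourth pair, 134777 bases apart on chromosome 6, held 9 intergenic regions nearest Plekhg6 and 8 regions inside Vwf, the gene of von Willebrand factor. Apart from Nfkbia, the genes of these pairs were named after their values were seen.

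The chain with most regions lay over Sfi1, a gene for a centrin-binding protein of the centrosome (ENSMUSG00000023764, minus strand, chr11:3131850-3193463). It held 38 regions at chr11:3128340-3185510, of which 35 had their centres in the Sfi1 body, 34 were intronic and 4 exonic. These regions spanned 57171 bases and covered 26.7% of them, the highest coverage of any chain, at 6.65 regions per 10 kb against a median of 2.18. The median gap was 962 bases and the widest region 1226 bases. Short regions of 119 and 90 bases lay almost end to end, at the smallest gap of 9 bases, and the next smallest gap was 162 bases.

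This locus also differs from most chains in its sequence. Over the 38 regions, words found a single time made up 58.8% to 100%, with a median of 99.6%, and the lowest 2 values lay past the 3′ end of Sfi1 in the pseudogene Pisd-ps1. Repeat-masked bases made up 19.2% of the regions, against 9.53% over all chained regions. The word count uses the assembled chromosomes only, and copies that the assembly lacks were not counted. No list of loci with excess reads was applied, and the part of such reads in this chain was not tested.

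The second chain, with 20 regions at chr1:86430094-86522619, was the longest at 92526 bases. All 20 regions were intergenic. The chain began 3765 bases from the start of Tex44, next to a start of Nmur1, a neuromedin U receptor, and ended before Ptma, the gene of prothymosin alpha. Its widest region had 827 bases. GC content ran from 47.4% to 67.7%, and the 4 regions of 640, 776, 719 and 674 bases had 66.8% or more.

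The third chain, with 17 regions at chr1:85277757-85346998, overlapped no protein-coding gene. Most of it lay in introns of non-coding genes, mainly the pseudogene Gm2619. Of its regions 12 had under 50% words that occur once, the lowest 16.8%, and the chain's median was 40.6%. A chain of 10 regions over Sp110 and Sp140, which encode nuclear body proteins, lay 231121 bases away at chr1:85578119-85637466 and had a median of 45.2%. These were the only chains with a median under 50%. A chain of 12 regions around Tmem267 at chr13:119596439-119617504 had a median of 71.1% and the highest repeat-masked share, 41.2%.

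Reads over sequence of this kind can match more than one copy. The authors removed multimapping reads, which can lose regions here, so the set of regions in these chains is less certain. In all, 24 chained regions (2.2%) in 6 chains had under 50% words that occur once, against 404 (1.13%) of the other distal regions. Without the 6 chains, 104 chains with 1021 regions remained, their median width was 194 bases and 59.5% of regions were intronic.

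The other chains among the 10 with most regions held 13 or 14 regions each. The chain at chr2:32852274-32917812 crosses the start of Fam129b, also known as Niban2, which encodes a membrane-associated signalling protein (ENSMUSG00000026796), and 9 of its 14 regions lay in the gene body. Of the others, 5 chains overlapped no protein-coding gene. Their nearest protein-coding starts were those of Azin1 at 45292 bases, Bach1 at 27908, Rnf24 at 18018, Chd7 at 145914 and 4930432M17Rik at 10190. The nearest start is a position and does not show which gene a region acts on.

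**Figure D2:**
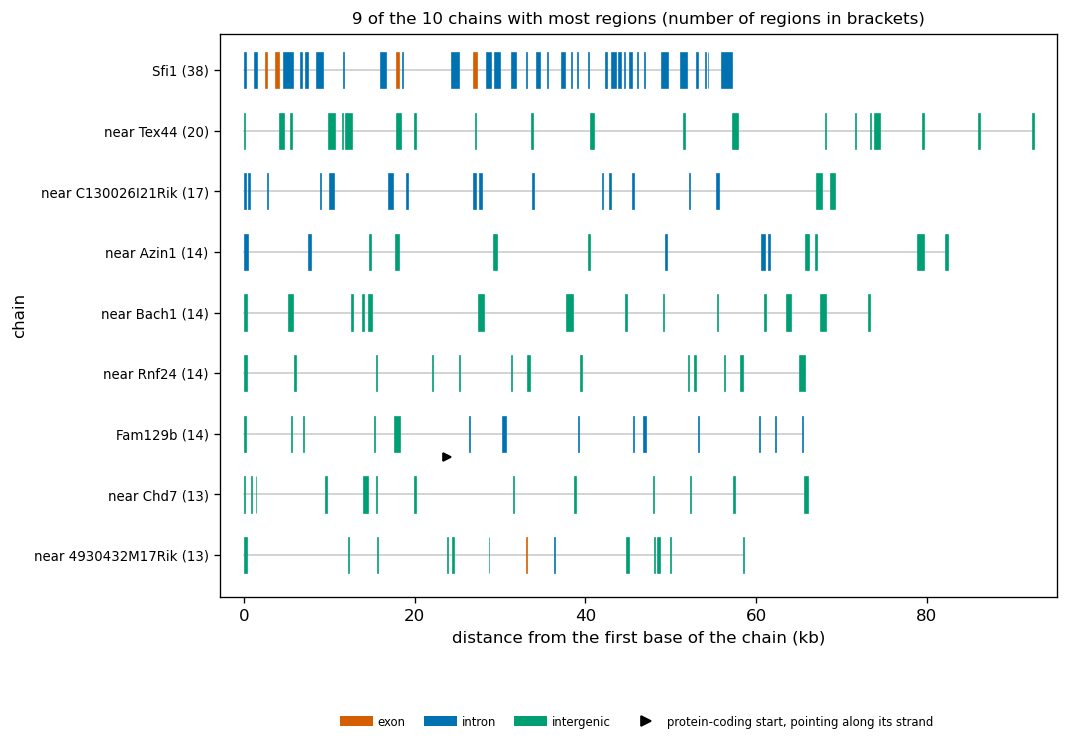
Maps of 9 of the 10 chains with most regions, by distance from each chain's first base (kb), with each region drawn from its start to its end and coloured by whether its centre lies in an exon, an intron or between genes. Outlines make the narrowest regions look slightly wide, triangles mark protein-coding starts inside the chain (the median where a gene has several), and the 38 regions over Sfi1 stand closer together than those of the other 8 chains.

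Genes next to a chain were counted next. A gene was next to a chain when its body overlapped the chain or a start lay within 50000 bases. Of all 20807 autosomal protein-coding genes 193 met this, or 0.928%. From 15 lists covering mTEC biology and contaminating cell types, 6 of 214 autosomal genes met it (2.8%), and 3 of these overlapped a chain. These 6 genes lay at 5 chains. The lists were chosen with earlier results of these data known, and no test was made of the difference.

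By list, 2 of 14 genes of NF-kB and its inducing receptors were next to a chain (Nfkb1 and Nfkbia), as were 2 of 13 regulators of self-antigens and antigen presentation (H2-Ab1 and H2-Aa). One of 22 factors of mimetic lineages was next to a chain (Insm1), and 1 of 21 epithelial adhesion genes (Cdh3). No gene was next to a chain among 12 thymic epithelial identity factors, 17 ETS factors, 13 Kruppel-like factors, 12 AP-1 factors or 15 tuft cell genes. The count was also 0 for 25 keratinocyte genes, 12 chemokines and cytokines and 17 genes of Wnt, BMP, FGF, TGF-beta and Notch signalling. At the share of 0.928% over all genes, most lists of these sizes would hold none, so nothing is read from a count of 0. These counts cover the listed genes only. Elk3, an ETS-family factor, and Smad1, Lgr4 and Pmepa1, which act in BMP, R-spondin and TGF-beta signalling, were on no list and each hold a whole chain. Asprv1, also on no list and named after its values were seen, has a start 7761 bases from a chain of 11 intergenic regions. The count was 0 again for the 9 T lineage, 5 other leukocyte and 7 fibroblast and endothelial markers. Vwf, the gene of von Willebrand factor, was not among these markers and holds a whole chain of 8 regions.

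The chain at Nfkbia, which encodes the NF-kB inhibitor IkB-alpha (ENSMUSG00000021025, minus strand, chr12:55489410-55492647), held 12 regions at chr12:55433846-55495451. From low to high coordinate their widths were 325, 86, 248, 495, 129, 900, 382, 209, 147, 710, 113 and 247 bases. None lay in the gene body. The first 11 lay past the 3′ end of the gene and the last lay 2393 bases from the start, on its upstream side. The widest, 900 bases, stood near the middle of the chain, and the next, 710 bases, stood near the gene's 3′ end. The NF-kB motif was found in 3 of the 12 regions, and the RUNX and TEAD motifs in 2 each. Over all chained regions these shares were 9.17%, 2.75% and 12.8%, and a chain of 12 regions is too short to set against them.

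The chain at Nfkb1 (ENSMUSG00000028163, minus strand, chr3:135584655-135691547) held 10 regions at chr3:135556098-135602495. Their widths were 460, 68, 140, 130, 178, 75, 88, 238, 129 and 241 bases in coordinate order. The last 4 lay in introns at the 3′ end of Nfkb1, the first 3 lay in introns of its neighbour Manba, a lysosomal mannosidase, and the 3 between were intergenic. The nearest Nfkb1 start was 65304 bases from the chain. Only the first of these regions exceeded 300 bases, unlike at Nfkbia, where 5 did.

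Cdh3 encodes P-cadherin, a cell adhesion protein of basal epithelial cells (ENSMUSG00000061048, plus strand, chr8:106510891-106557297). It was the only listed gene that held a whole chain. All 9 regions, at chr8:106516684-106541297, were intronic, and the chain began 5793 bases from the annotated start. Widths were 95, 98, 282, 204, 187, 225, 257, 105 and 88 bases, so no region reached 300. The median gap was 2305 bases, and this was 1 of 4 chains that still touched a chain when gaps were limited to 5000 bases. One region of the chain held the GRHL motif, of 5 among all chained regions.

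The chain at the MHC class II genes lay at chr17:34291700-34314507 and held 8 regions. Their widths were 140, 178, 569, 109, 411, 262, 233 and 93 bases. It began 3877 bases from a start of H2-Aa (ENSMUSG00000036594, minus strand) and 28450 bases from a start of H2-Ab1 (ENSMUSG00000073421, plus strand), the alpha and beta chains of the I-A molecule. The chain crosses the start of H2-Eb1, the beta chain of I-E, which was on no list. One region was intergenic, 5 lay in introns of Gm20513, an antisense gene that overlaps H2-Eb1, and the last 2 lay in introns of H2-Eb1. Inside the span, 3 further regions stood within 2000 bases of a start and were not members.

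Insm1 encodes a zinc finger factor of neuroendocrine cells (ENSMUSG00000068154, plus strand, chr2:146221921-146225020). The chain next to it, at chr2:146254464-146291985, began 32543 bases from its start. All 9 regions, however, lay in the body of the neighbouring gene Ralgapa2, a subunit of a GTPase-activating complex for Ral. They were 7 intronic and 2 exonic, with widths of 292, 198, 203, 215, 80, 371, 196, 94 and 134 bases. Which gene, if any, these regions act on cannot be read from their positions.

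**Figure D3:**
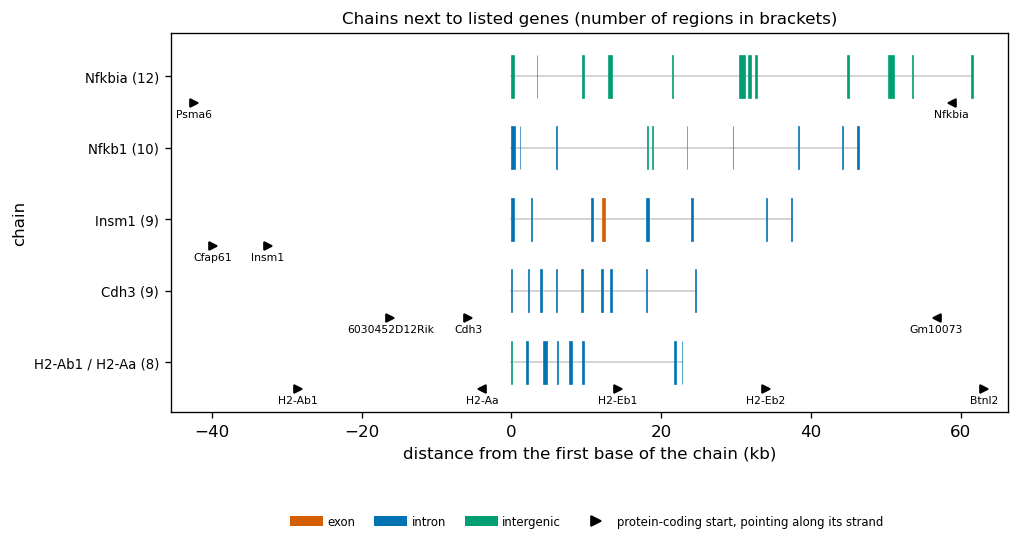
Maps of the 5 chains next to listed genes by distance from each chain's first base (kb), with regions coloured by the place of their centres and triangles at protein-coding starts pointing along the strand (the median where a gene has several). The Cdh3 regions all lie inside the gene, the Nfkbia regions lie mostly past its 3′ end, the Insm1 start lies 32543 bases before its chain, and the Nfkb1 start, 65304 bases away, is beyond the plotted starts.

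Placement over all chains was mainly intronic. Of the 1090 chained regions 661 had their centre in an intron, or 60.6% (95% Wilson interval 57.7 to 63.5), against 50.5% (50 to 51) of the other distal regions. Intergenic centres made up 35.8% against 44.6%, and exonic centres 3.58% against 4.93%. The intervals count regions as if they were independent, which regions of 1 chain are not, since they share a gene. In runs of 7 regions the intronic share was 52.1%, in chains of 8 or 9 it was 64.5% (60.5 to 68.3) and in chains of 10 or more it was 56.4% (52.1 to 60.6). The share therefore did not climb steadily with the size of the run.

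In 50 of the 110 chains every region lay in the body of 1 protein-coding gene, against 28 of the 91 runs of 7. For 1 of the 50, on chromosome 16, Cmss1 and Filip1l overlap and both hold all 8 regions. Counting by overlap, 69 chains met 1 protein-coding gene, 11 met 2 or more and 30 met none, and in 22 chains all regions were intergenic. The 93 protein-coding genes that overlapped a chain had a median length of 107 kb, against 17.6 kb for all 20807. A long gene has more room for a chain, and gene length was not taken out of these counts.

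The rule left out regions near starts, so the distance of the chains from starts is partly the choice itself. No annotated start of any gene type lay inside 62 chains, and 24 held a protein-coding start. No such count is given for shorter runs, so these counts have no background beside them. In 30 chains 48 regions near starts stood between the members. The median distance from a chained region to the nearest start was 19417 bases (quartiles 9004 and 35338), against 15883 bases (7456 and 33676) for the other distal regions.

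Within the 51 host genes of those 50 chains, the chain's centre lay at a median of 46.9% of the gene's length from its 5′ end (quartiles 29.9 and 58.5), and 27 centres lay in the 5′ 50%. The rule keeps regions away from starts and a chain needs room, so a centre could not lie at the very 5′ end, and nothing is read from this position. The chain spanned a median of 23.7% of the host. The hosts were named after their values were seen. The highest share was 87% for Smad1, a transducer of BMP signals, in which 11 regions lay at chr8:79339728-79392914. It was 85.4% for Pmepa1, an inhibitor of TGF-beta signals, 73.4% for 1110008L16Rik and 72.9% for Pdlim1, a cytoskeletal LIM protein.

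Further hosts are given as examples, picked by hand, and they do not stand for the whole set. Gab1, a docking protein of receptor tyrosine kinases, held 10 regions over 33.2% of its length, and Spred2, an inhibitor of the Ras and MAP kinase pathway, held 9 over 42%. Ksr1, a scaffold of the same pathway, held 8 over 33.5%. Lgr4, a receptor for R-spondins, held 9 over 52.5%, and Cflar, an inhibitor of caspase-8, held 8 over 52.3%. At the other extreme, the 8 regions in Ank3, which encodes ankyrin-G, spanned 4.63% of a gene of 629 kb.

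Elk3 held 8 regions over 42.6% of its length. Iqgap1, a scaffold of actin regulators, held 11 regions over 39.7% of its length, and Kazn, whose product kazrin is linked to cell junctions, held 8 over 37.3%. Fmnl2, a formin, held 9 regions over 19.2%. The RNA-binding genes Rbm47, Mbnl2 and Rbms1 held 12, 11 and 11 regions over 43%, 29.8% and 17%. In Rbm47 and Rbms1 the chain's centre lay in the 3′ part of the gene, at 74.4% and 69.3% of its length, and in Mbnl2 at 31.5%.

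The following genes at chains were also picked by hand after their values were seen. Socs3, an inhibitor of JAK kinases, lay inside a chain of 9 regions at chr11:117930906-117976586 in which every region was intergenic. The nearest start of its relative Socs1 lay 3099 bases from a chain of 9 regions at chr16:10741217-10782437 that reaches the gene's 3′ end, with 8 regions intergenic and 1 in an intron. Sik1, a salt-inducible kinase, was crossed by a chain of 13 regions at chr17:31820280-31873073, of which 11 were intergenic. A chain of 8 regions, all in introns of the non-coding gene Gm20139, stood 152357 bases from Tnfaip3, the gene of the NF-kB inhibitor A20, which was the largest distance of any chain to its nearest protein-coding start.

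Chained regions were somewhat wider than other distal regions. The median width was 194 bases (95% interval of the median 181 to 203, quartiles 119 and 313) against 165 bases (163 to 166, quartiles 105 and 276). Of the chained regions 52.1% were under 200 bases and 1.47% had 800 or more, against 59.6% and 0.864%. The difference followed the length of the run and did not begin at the threshold. Single regions had a median of 156 bases, runs of 2 had 164, runs of 3 had 175, and runs of 7 had 191. Chains of 8 or 9 regions had 188 and chains of 10 or more had 196, with intervals that overlapped those of runs of 7.

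**Figure D4:**
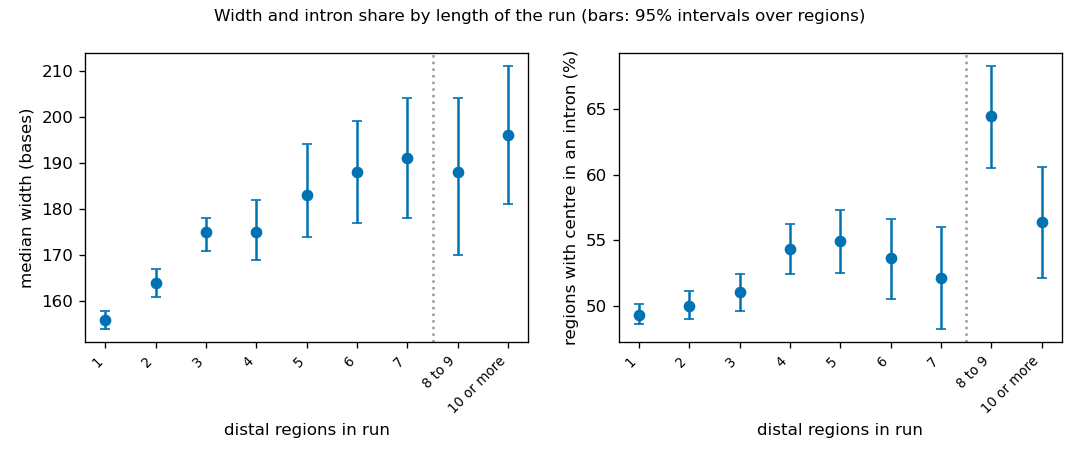
Median width in bases (left) and percentage of regions with their centre in an intron (right) by the number of distal regions in the run, with 95% intervals over regions that treat them as independent and a dotted line at the threshold for chains. Median width climbs from 156 bases for single regions to 191 in runs of 7 and stays near that in chains, while the intronic share is highest, 64.5%, in chains of 8 or 9 regions; neither vertical axis starts at 0.

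Base composition and repeats differed little. Median GC content was 52% in chained regions (95% interval 51.6 to 52.3) and 51.1% in other distal regions (51 to 51.2), and it was 52.8% in runs of 7. Repeat-masked bases made up 9.53% of chained and 9.57% of other distal sequence. Chains varied in GC, from a median of 45.3% to one of 62.9%.

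Motifs were counted as exact matches on either strand in the 200 bases around the centre of every region, whatever its width. This window was wider than 52.1% of chained and 59.6% of other distal regions, so a match can lie outside the region. AP-1, the site of Fos and Jun factors, was searched as TGANTCA and was the most frequent. It was found in 279 chained regions, or 25.6% (23.1 to 28.3), against 24.2% of other distal regions, 7.62% of regions near starts and 18.5% of all 57124. The ETS letters GGAAGT were found in 16.5% of chained and 16.1% of other distal regions and in 16.1% of all regions. TEAD (GGAATG) was found in 12.8% against 11.9%, with 10.2% of all regions. In this window the chained share of these motifs lay within 2 percentage points of the distal share. With whole regions searched the gaps were wider, as given at the end.

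The Kruppel-like letters GGGNGTGG were found in 11% of chained regions (9.29 to 13) and 9.01% of other distal regions (8.72 to 9.31), against 10.7% of all regions. NF-kB (GGGNNTTCC) was found in 9.17% (7.6 to 11) against 10.3%, with 8.77% of all regions. The CTCF core (AGNNGGCNC) was found in 13.6% against 14.9%, with 17.4% of all. The FOX letters TGTTTAC gave 4.13% against 3.65% (2.97% of all), RUNX (TGTGGTTT) 2.75% against 2.68% (2.05% of all) and the POU octamer ATGCAAAT 1.28% against 1.88% (1.59% of all). For the octamer the order turned, to 2.29% against 2%, when whole regions were searched. The ETS or TEAD letters can overlap those of NF-kB at a shared TTCC, so a region may count for both.

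Grainyhead-like factors, which act in epithelia, were searched as the palindrome AACCNGGTT. It was found in the window of 5 chained regions, or 0.459% (0.196 to 1.07), against 57 other distal regions, or 0.159% (0.123 to 0.206), and 0.161% of all regions. The 5 lay in 5 chains, among them those of Nfkbia, Cdh3, Rin2 and the 20 regions between Nmur1 and Ptma. With whole regions searched the shares were 0.275% and 0.184%, so some of the 5 matches lie in sequence beside the region. The intervals overlap, and 5 regions are too few to order the shares.

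**Figure D5:**
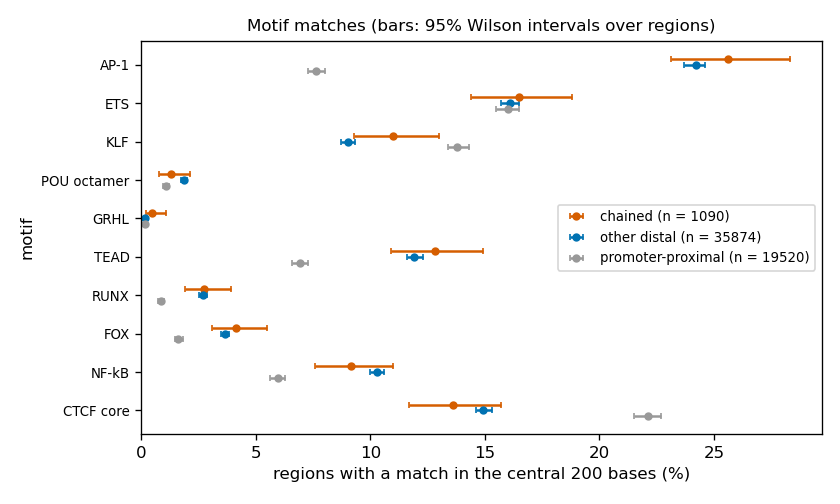
Percentage of regions with each motif in the 200 bases around their centre (horizontal axis), a window that runs past the ends of narrower regions. Sets are 1090 chained, 35874 other distal and 19520 promoter-proximal regions, with 95% Wilson intervals over regions. Chained and other distal points lie close together for most motifs, for AP-1 at 25.6% and 24.2%, and both lie well above the 7.62% of promoter-proximal regions.

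Counted by chain, AP-1 letters stood in at least 1 region of 107 of the 110 chains (97.3%) and in at least 3 regions of 52. Of the runs of 7, which have fewer regions to search, 72 of 91 (79.1%) held it. The 3 chains without a match were the one over Gm2619 with words that occur several times, the one nearest Tnfaip3 and the one in Snx29. Up to 6 AP-1 regions stood in 1 chain, as in the 14 regions before Bach1 and the 11 in Iqgap1. NF-kB letters stood in 66 chains and in 3 or more regions of 7, which besides Nfkbia included those of Sik1, Galnt7, Pml, Spred2 and Plekha6. The highest count was 4 of 10 regions at chr14:122045887-122081495, where Timm8a2 has the nearest protein-coding start. Runs of 7 were not counted for NF-kB, so these counts have no background, and the chains named were picked by them. By region the NF-kB share was 9.17% in chained and 10.3% in other distal regions. A match gives letters in a window, which can run past the region's ends, and not a bound factor.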

How the data were processed

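ATAC-seq libraries of 8 sorted mTEC samples were aligned by the authors to mm10 with Bowtie2. They used SAMtools to keep properly paired, well-aligned reads and to drop mitochondrial, multimapping and non-unique alignments, and Picard to clear duplicates. The authors called broad peaks with MACS2 and merged them with bedtools into consensus regions, and per the file headers featureCounts 2.0.3 counted the reads. The sources used here do not state if peak calling was done on single or pooled samples. Removal of poorly mapped and multimapping reads can lose regions in repeated sequence, and widths depend on the caller and on merging.

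From the deposited table only region starts, ends and widths in bases were used. Its 8 columns of read counts carry names that match no sample label, so they were not used in any step. The planned summaries of read depth over the chains and their alternatives (another scaling, leaving out a column) were not run, library depth was not analysed, and no test over samples was made.

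Distances, chains and placement used GENCODE M21 basic on mm10. A region's place was that of its centre, with exons first. Sequence, repeat masking (lower case letters) and counts of 31-base words on both strands were read from RefSeq GRCm38.p6, whose autosomes match mm10 in name and length. Medians have order-statistic intervals and shares Wilson intervals (95%), which cover counting error over regions only. The members and lists were chosen with earlier results of these data known. Named genes were those overlapping the 10 chains with most regions (longer span first where tied) and listed genes next to a chain, and others are marked in the text as named later. 1 gene that the rule names, and the map of its chain, are not reported here. Chaining, motif search and word counts were tested on simulated data. Python 3.11.15, pandas 2.3.3, numpy 2.4.6, scipy 1.17.1, numba 0.67.0 and matplotlib 3.10.9 were used.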

Additional observations from a re-analysis of the deposited data

How the results depend on the processing

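The number of chains followed the definition. With gaps of at most 5000 bases 5 chains with 63 regions were left, touching the chains of Sfi1, Tmem267, Cdh3 and the one nearest Asprv1, and with gaps of at most 25000 bases there were 531 with 5683. Chains of 6 or more regions numbered 370 with 2741 regions, and chains of 10 or more 42 with 521. With regions of at least 200 bases only, 5 chains with 55 regions were left, touching those of Sfi1, Sik1, Iqgap1, Socs3 and the one nearest Azin1. There the median width was 374 bases for chained and 309 for other distal regions, and median GC content 52.6% and 50.4%. The median repeat-masked share of a region was 7.09% and 6.14%, against 0 for both in the main setting. This is a median over regions and not the share of all bases given above. In those 5 chains 9.09% of regions were exonic and 54.5% intronic. The exonic share was 5.41% with the comprehensive annotation. Listed genes next to a chain numbered 3 of 93 genes by overlap alone and 11 of 321 with starts within 100000 bases.

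The other settings moved the counts by less than 1.5 times. These were a distance to starts over 1000 bases (148 chains) or 5000 bases (79), the comprehensive annotation (86), joining regions at most 500 bases apart (88), regions under 50% repeat-masked (97) and, added after seeing the data, regions with at least 50% words that occur once (106). Over the whole region the POU octamer share was 2.29% of chained against 2% of other distal regions, which turns its direction. AP-1 was 29.8% against 26%, ETS 19.4% against 16.5%, KLF 14.7% against 9.77% and TEAD 14.8% against 12.5%. These gaps were wider than in the 200-base window. NF-kB was 11.3% against 11.7%, the CTCF core 16.1% in both, and GRHL 0.275% against 0.184%. Chained regions were wider, so more of their sequence was searched, and the part of width was not tested. With regions of at least 200 bases ETS was 25.5% of the 55 chained against 16% of other distal regions, and POU and GRHL were at 0. No paired analysis was possible because no value here belongs to a sample and no result comes from a test. The libraries behind each region and their depth are not analysed here.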
